A study of Drosophila melanogaster with 30 samples.

Results

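The oxidative phosphorylation subunit genes described here are the nuclear genes for subunits of the mitochondrial respiratory complexes I, III and IV and of the ATP synthase, complex V, in the midgut of the fruit fly Drosophila melanogaster. They were chosen by an exact match of gene symbols against a list of 50 such genes, and 47 of the 50 symbols stand among the 17488 genes of each table: 25 for complex I, 8 for complex III, 8 for complex IV and 6 for complex V. The other 3 genes of the list, CG3683, CG12079 and CG13240, stand in the tables under the symbols NDUFA8, NDUFS3 and l(2)35Di, and are reported beside the 47 without being counted among them. Of the 47 members, 45 passed the filter on low values (a mean of 1 scaled FPKM or more) and entered the tests. FPKM counts the fragments of a gene relative to the length of its transcripts and to the size of the library, and scaled FPKM is that value after division by a factor per library.

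The respiratory chain passes electrons from NADH through complex I, and from succinate through complex II, by way of ubiquinone to complex III, then by cytochrome c to complex IV and oxygen. Complexes I, III and IV pump protons across the inner mitochondrial membrane, and complex V uses the return flow of protons to make ATP. Every one of these 4 complexes also contains subunits encoded in mitochondrial DNA, so that its assembly needs proteins made by both genomes. The intestinal epithelium, which absorbs nutrients and is renewed by stem cells, draws on mitochondrial ATP for transport and for secretion.

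The study, on dietary lipids and the fly intestine, sequenced poly(A) RNA from isolated midgut regions in 30 libraries, 3 for each of 10 groups. A library was made from 30 to 50 isolated regions, pooled, of mated females aged 10 to 12 days, taken from posterior midgut or anterior midgut. The groups of each region were y[1]w[1] flies on a lipid-depleted diet, y[1]w[1] flies on food with 0.2% cholesterol, which is 4 times that of control food (the high-cholesterol diet), the strains TI{TI}Hr96[1] and Hr96[2x] on the control diet, and y[1]w[1] flies on the control diet, called wild type below. Hr96 encodes a nuclear receptor that binds cholesterol and takes part in the control of lipid metabolism. The diets began before the flies emerged as adults, and females were kept with males. The strain labels of the Hr96[1] and Hr96[2x] flies do not mention y[1]w[1], so that the effect of an Hr96 allele and that of the strain's background cannot be told apart. Nothing in the labels ties the replicates to separate cultures or animals, and p-values then measure only the spread between these libraries, which may be technical. With 3 libraries against 3, an exact permutation test on 1 value cannot go below p = 0.1, and all tests below are limma moderated tests fitted over 8335 genes and 30 libraries, 2-sided, with Benjamini-Hochberg adjustment over those genes and a threshold of 0.05.

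Only FPKM values were deposited, so the depth of the libraries is unknown; between 9923 and 13355 genes were above 0 in a library. The confidence limits deposited beside the FPKM lay a median of 5.47% of the value away from it for 43 well-expressed members, which covers the estimation error of a library and not the spread between libraries. The targeted gene, Hr96, had 38.1, 33.4 and 27.9 scaled FPKM in posterior and 42.1, 40.3 and 33.9 in anterior midgut of Hr96[1] flies, and 73.4, 63.8 and 80.3 in posterior and 76.5, 69.3 and 80.0 in anterior midgut of Hr96[2x] flies. Wild type had 65.2, 57.8 and 63.1 in posterior and 67.9, 43.4 and 61.2 in anterior midgut. The gene was not called in Hr96[2x]. It fell by 0.90 on the log2 scale in posterior Hr96[1] midgut (adjusted p = 0.0173) and was at -0.54 in anterior midgut (adjusted p = 0.112). A gene-level FPKM also counts exons that an allele leaves in place. In anterior midgut Hr96 rose on both diets, by 1.30 on the lipid-depleted (adjusted p = 0.00271) and 1.16 on the high-cholesterol diet (adjusted p = 0.00984). In posterior midgut it was at 0.80 and 0.79 on these diets, not called. Some libraries stood apart. The 8 genes of the fat body list, yolk protein genes among them, summed to 1894 and 1612 scaled FPKM in replicate 1 of the posterior and anterior wild-type groups, against 11.2 to 624 in the other libraries. Replicate 1 of both Hr96[1] groups stood apart in other lists: 5 flight muscle genes, from tissue rich in mitochondria outside the gut, summed to 14.8 in its posterior and 11.4 in its anterior library, against at most 4.67 in any other library. The 8 ovary genes summed to 71.2 and 96.2 there, against 17.8 to 22.1 in Hr96[1] replicates 2 and 3 of both regions, and the 3 copper cell genes to 22.7 and 71.4, against at most 3.12 in the posterior and 24.5 in the anterior libraries of those replicates. The ovary genes were also high, at 82.8, in anterior high-cholesterol replicate 3. Also, posterior Hr96[1] replicate 3 had the highest summed level of the members of all libraries, 28990 scaled FPKM. Counts without each of these libraries are given with the results. In 8 of the 10 groups replicates 2 and 3 were the pair most alike over all genes, and the closing section gives the counts with that pair averaged.

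The members were among the most abundant transcripts of the midgut. For the 43 members with a mean of at least 5 scaled FPKM, the percentile of their level among the genes tested had a median of 94.0 and a lowest value of 67.4. The median level per length was 718 scaled FPKM for 7 members of complex IV, 537 for the 6 members of complex V, 314 for 6 members of complex III and 152 for 24 members of complex I. CG4692 (ATPsynF, subunit f of the membrane part of ATP synthase) averaged 954 over the 30 libraries, cype (the COX6C subunit of cytochrome c oxidase) 948, and CG32230 (ND-MLRQ, the fly counterpart of human NDUFA4) 937. CG3560 (UQCR-14, a small subunit of the cytochrome bc1 complex) was the most abundant of complex III, at 523. At the low end of complex I stood CG40002 (ND-AGGG) with 26.2. The kit does not keep strand, and 23 members have exons that overlap a gene on the other strand and 5 a gene on their own strand, so that part of their reads may belong to a neighbour.

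**Figure D1:**
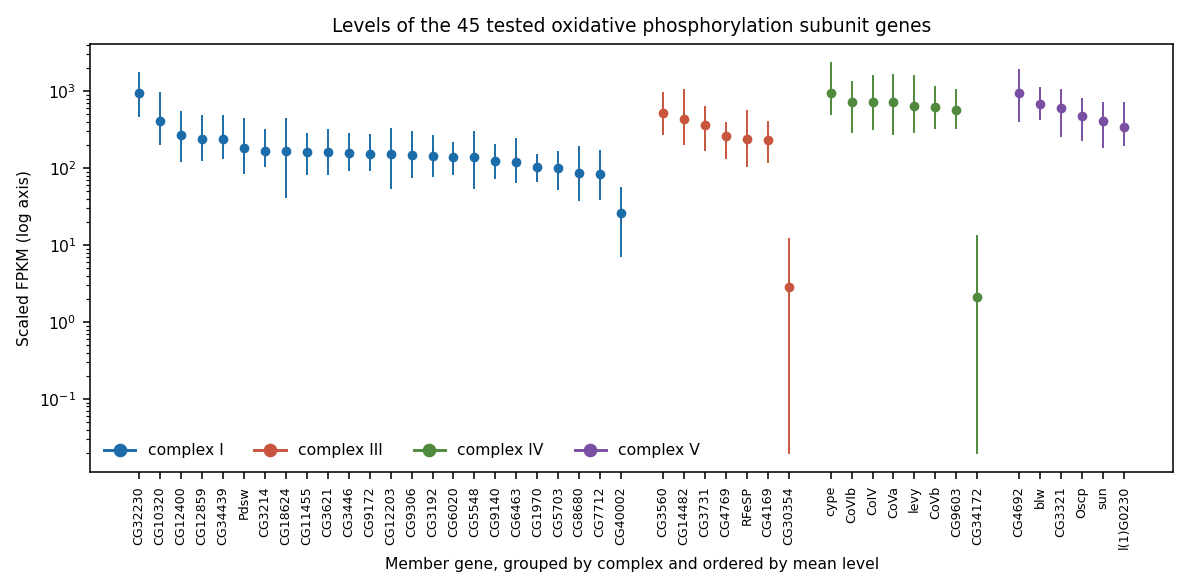
Mean level of each of the 45 tested members over the 30 libraries (point, scaled FPKM on a log axis) with a line from the lowest to the highest library, grouped by complex and with values of 0 drawn at 0.02. CG15434 and CG17856, which were not tested, are not drawn. The drawn members of complexes III, IV and V other than CG30354 and CG34172 average 229 to 954, and most of complex I lies below them.

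The 4 members with a mean under 5 were of another kind. CG30354 (UQCR-11L, a duplicate of a complex III subunit gene) averaged 2.85 and CG34172 (COX7AL2, a duplicate of the complex IV gene CG9603, COX7A) averaged 2.14, where CG9603 itself averaged 574.5. CG17856 (UQCR-14L, a duplicate of CG3560) was listed at 0 in 29 libraries and at 0.0675 in 1. CG15434 (ND-B8, the fly counterpart of NDUFA2) was listed at 0 in 25 libraries and reached 0.217 at most. No estimate of CG17856 or CG15434 was marked as failed, but with depth unknown no level is drawn from a value of 0. The 2 last genes did not enter the tests.

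Across libraries the members moved together. Over the 30 libraries, the Pearson correlation of a member's log2 level with the mean of the other members had a median of 0.934 and was at least 0.8 for 39 of 45. After the mean of each group was removed the median was 0.844, with 29 of 45 at 0.8 or more, so that the members also varied together among the replicates of a group. Each library contributes 1 scaling factor to all of its genes, which these points share. The members least like the rest were CG30354 (0.358), CG40002 (0.38) and CG34172 (0.471). These are the 3 tested members with the lowest mean levels, at 2.85, 26.2 and 2.14 scaled FPKM.

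The summed level of the 47 members shows the groups at a glance. In posterior midgut it was 12540, 8900 and 8809 scaled FPKM on the lipid-depleted diet, 15840, 12800 and 10780 on the high-cholesterol diet, 16730, 18170 and 28990 in Hr96[1] flies, 19770, 19190 and 13370 in Hr96[2x] flies, and 13430, 13990 and 13280 in wild type. In anterior midgut it was 14100, 9189 and 8551 on the lipid-depleted diet, 15870, 12690 and 11030 on the high-cholesterol diet, 18620, 21030 and 22800 in Hr96[1], 21310, 20270 and 16670 in Hr96[2x], and 11320, 12890 and 11000 in wild type. Every Hr96[1] library lay above every wild-type library of its region, every anterior Hr96[2x] library did too, and posterior Hr96[2x] replicate 3 did not clear the wild-type libraries. In both diets replicate 1 was the highest of its group in both regions. As a share of the deposited FPKM, which needs no scaling factor, the members made up 2.18%, 2.37% and 2.67% in posterior Hr96[1] libraries, 2.35%, 2.02% and 1.88% in posterior Hr96[2x] and 1.63%, 2.06% and 1.98% in posterior wild type. The shares in anterior midgut were 1.54%, 1.78% and 1.78% in Hr96[1], 1.92%, 1.40% and 1.15% in Hr96[2x] and 1.00%, 1.28% and 1.24% in wild type, where anterior Hr96[2x] replicate 3 falls inside the wild-type range. Posterior Hr96[2x] replicates 2 and 3 fall inside the posterior wild-type range. On the lipid-depleted diet the shares were 1.73%, 1.43% and 1.48% in posterior midgut, where replicate 1 fell inside the wild-type range. All anterior lipid-depleted shares fell inside the anterior wild-type range. High-cholesterol shares were 1.99%, 1.45% and 1.27% in posterior midgut, with replicate 1 inside the wild-type range. They were 1.37%, 0.75% and 0.651% in anterior midgut, with replicate 1 above and replicates 2 and 3 below wild type.

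**Figure D2:**
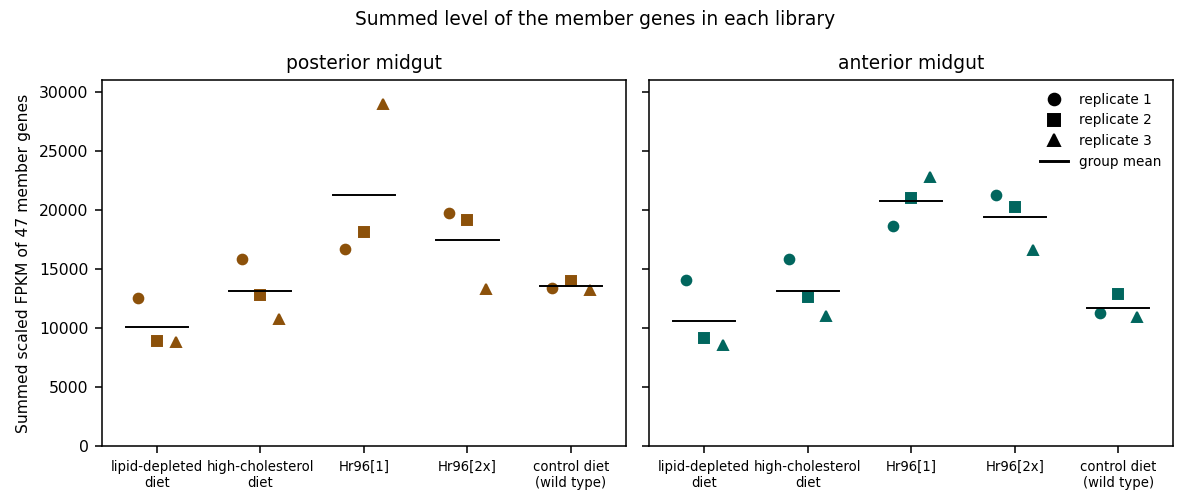
Summed scaled FPKM of the 47 members in every library (1 point a library), by condition, with posterior midgut on the left and anterior midgut on the right. The Hr96[1] libraries lie at 16730 and above, over all wild-type libraries, which lie between 11000 and 13990.

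The most abundant member of each complex is given in every library. In posterior midgut, CG32230 had 952, 977 and 710.3 scaled FPKM on the lipid-depleted diet, 1089, 922 and 678 on the high-cholesterol diet, 979.5, 973 and 1256 in Hr96[1], 1719, 1479 and 781 in Hr96[2x] and 916, 985 and 868 in wild-type flies on the control diet. Anterior libraries had 932, 481 and 491 on the lipid-depleted diet, 1119, 682 and 553 on the high-cholesterol diet, 1011, 1058 and 1215 in Hr96[1], 1215, 1304 and 893 in Hr96[2x] and 768, 629 and 483 in wild type. For this gene, counted under complex I in the list used here, the 3 libraries of each Hr96 strain lay above all wild-type libraries in anterior midgut. Its exons share their strand with the microRNA gene mir-4942. In posterior midgut, CG3560 had 390, 376 and 295 scaled FPKM on the lipid-depleted diet, 408, 457 and 383 on the high-cholesterol diet, 530.1, 684 and 943 in Hr96[1], 652, 695 and 389 in Hr96[2x] and 405, 523 and 532 in wild-type flies on the control diet. Anterior libraries had 432, 295 and 276 on the lipid-depleted diet, 467, 452 and 400.2 on the high-cholesterol diet, 577, 827 and 933 in Hr96[1], 717, 865 and 597 in Hr96[2x] and 352, 462 and 390.2 in wild type. The 4 highest posterior values of this complex III gene were those of 2 Hr96[1] and 2 Hr96[2x] libraries.

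In posterior midgut, cype had 814, 581 and 556 scaled FPKM on the lipid-depleted diet, 1050, 865 and 675 on the high-cholesterol diet, 1041, 1120 and 2302 in Hr96[1], 1425, 1291 and 575 in Hr96[2x] and 803, 817 and 785 in wild-type flies on the control diet. Anterior libraries had 812, 602 and 508 on the lipid-depleted diet, 1060, 775 and 672 on the high-cholesterol diet, 1104, 1419 and 1459 in Hr96[1], 1125, 1232 and 933 in Hr96[2x] and 672, 794 and 582 in wild type. One posterior Hr96[1] library, replicate 3, held more than any other library of either region. In posterior midgut, CG4692 had 795, 416 and 517 scaled FPKM on the lipid-depleted diet, 1032, 744 and 591 on the high-cholesterol diet, 1046, 1141 and 1861 in Hr96[1], 1124, 1156 and 801 in Hr96[2x] and 858, 836 and 874 in wild-type flies on the control diet. Anterior libraries had 1014, 558 and 592 on the lipid-depleted diet, 1056, 843 and 646 on the high-cholesterol diet, 1322, 1286 and 1345 in Hr96[1], 1448, 1226 and 1205 in Hr96[2x] and 711, 899 and 688 in wild type. The anterior Hr96[1] libraries of this ATP synthase gene differed little from each other and lay above all anterior wild-type libraries.

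In the anterior midgut of Hr96[1] flies, subunit genes of all 4 complexes were higher than in wild type. Of the 45 members tested, 37 rose and none fell, where 23.9% of the 8335 genes tested were called in either direction and 11.9% were called higher. All 45 log2 changes were above 0, with a median of 0.84 (1.79-fold) and a range of 0.24 to 2.2, against a median of 0.01 over all genes tested. The libraries did not overlap for 42 members, where 20.3% of all genes tested were higher without overlap. In bulk tissue, a change in the number of cells of a type and a change in RNA per cell cannot be told apart. The 4 comparisons of a region with its wild type share the 3 wild-type libraries.

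Complex I had 21 of its 24 tested members called, with a median log2 change of 0.88. CG7712 (ND-B14, an accessory subunit and counterpart of NDUFA6; FBgn0033570, chr2R:10897144-10897885, minus strand of dm6) had 94.0, 127 and 131 scaled FPKM in Hr96[1] libraries, against 44.4, 57.4 and 48.5 in wild type. The lowest Hr96[1] library was above the highest wild-type library, and the gene rose by 1.20 (log2, SE 0.20, adjusted p = 0.000139). CG3446 (ND-B16.6, counterpart of NDUFA13) had 197, 275 and 264 in Hr96[1], against 116, 135 and 101 in wild type, a rise of 1.06 (adjusted p = 0.000667). CG3192 (ND-ASHI, counterpart of NDUFB8) had 157, 221 and 229 in Hr96[1], against 98.4, 123 and 102 in wild type, a rise of 0.89 (adjusted p = 0.00182). Neither gene had overlapping groups. The 4 core subunits found by symbol, which carry the flavin, iron-sulfur clusters or quinone site (CG1970, CG9140, CG5703 and CG9172), were all called, with a median of 0.62, and 17 of the 20 other subunits were called, with a median of 0.89. NDUFS3, a further core subunit under another symbol, was at 0.60 and not called. The 3 members of complex I not called were CG6020 (0.46), CG12400 (0.75) and CG40002 (0.33). CG32230, the most abundant, rose by 0.83 with an adjusted p of 0.0467, close to the threshold. With 1 library left out it was called in 1 of 6 fits.

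Complex III had 4 of 7 members called, at a median of 0.61. RFeSP, the Rieske iron-sulfur protein that passes electrons within the complex (FBgn0021906, chr2L:1612429-1614160, minus strand), had 368, 440.4 and 469 scaled FPKM in Hr96[1], against 166, 214 and 172 in wild type. Its groups were far apart and the change was 1.21 (SE 0.20, adjusted p = 0.000177). CG3560 rose by 0.93 (adjusted p = 0.00734), CG14482 (UQCR-6.4, a small subunit) by 1.11 and CG4769, cytochrome c1, by 0.61. The core protein genes CG3731 (0.37) and CG4169 (0.41) and the duplicate CG30354 (0.32) were not called.

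Complex IV had 7 of 8 members called, at a median of 0.93; CoVb (COX5B) was not, at 0.66. cype rose by 0.96 (adjusted p = 0.0263) and CoVa (COX5A) by 0.98 (adjusted p = 0.0146). The duplicate CG34172 had 13.3, 5.78 and 2.87 scaled FPKM in Hr96[1], against 0.463, 1.43 and 0.0823 in wild type, and its log2 change of 2.2 (SE 0.67) was the largest of all members but rested on low values that differed widely within each group. Complex V had 5 of 6 members called, at a median of 0.78, with CG4692 at 0.79 (adjusted p = 0.034) and l(1)G0230 (the delta subunit of the central stalk) at 0.83. blw, the alpha subunit of the catalytic head, was not called, at 0.24. Of the 3 genes under other symbols, NDUFA8 and l(2)35Di rose (0.68 and 0.92) and NDUFS3 was at 0.60. With 1 library left out l(2)35Di was called in 6 of 6 fits, NDUFA8 and cype in 2 of 6 each and CG4692 in 1 of 6.

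How many members passed the threshold depended on scaling and on single libraries, while the median stayed above 0 in every alternative run. On the FPKM as deposited 3 of 45 members were called, with a median of 0.48, but there the median of all genes tested was at -0.28, so that the members stood 0.76 above it, against 0.83 with scaled values. The count was 22 without wild-type replicate 1, 21 without wild-type replicate 3, 22 without Hr96[1] replicate 2 and 16 without Hr96[1] replicate 3; it was 32 without Hr96[1] replicate 1, which stood apart in the marker lists. With replicates 2 and 3 averaged it was 6. CG7712 and RFeSP were called in all 11 other alternatives and all 6 leave-outs.

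In the posterior midgut of Hr96[1] flies fewer members passed the test. Of 45, 13 rose and none fell, where 12.9% of all genes tested were called in either direction and 5.03% were called higher. The median log2 change was 0.57 (1.49-fold), 43 changes were above 0, and 33 members had an unadjusted p under 0.05. The 3 libraries of each group did not overlap for 37 members, where 14.8% of all genes tested were higher without overlap. By complex, 8 of 24 members of complex I, 1 of 7 of complex III, 2 of 8 of complex IV and 2 of 6 of complex V rose.

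RFeSP led again: it had 318, 333 and 555 scaled FPKM in Hr96[1], against 192, 199 and 189.8 in wild type, a rise of 1.00 (SE 0.20, adjusted p = 0.00173). CG18624 (ND-MNLL, counterpart of NDUFB1; FBgn0029971, chrX:7893053-7893798, minus strand) had 211, 261 and 438 in Hr96[1], against 140.4, 107 and 141 in wild type, a rise of 1.16 (adjusted p = 0.0143). Its exons overlap those of CG45089 on the same strand, so that its reads may be split between the 2 genes. CG12203 (ND-18, counterpart of NDUFS4) had 179.8, 187 and 327 in Hr96[1], against 130, 106 and 113 in wild type (rise of 0.93, adjusted p = 0.017). Pdsw (counterpart of NDUFB10) had 241, 256 and 433 in Hr96[1], against 173, 153 and 143 in wild type (rise of 0.93, adjusted p = 0.0235). In all 4 genes replicate 3 of Hr96[1] was the highest library and the other 2 also lay above wild type. The other called members were CG5548, CG6463, CG9140, CG9172 and CG10320 of complex I, CoIV and CoVa of complex IV, and blw and l(1)G0230 of complex V. The most abundant members were not called here: CG32230 was at 0.20, CG3560 at 0.53, cype at 0.79 (adjusted p = 0.0942) and CG4692 at 0.61.

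The posterior count was sensitive to single libraries in both directions. It was 2 without Hr96[1] replicate 3, 21 without Hr96[1] replicate 1, 4 without wild-type replicate 1, and 2 without wild-type replicate 2 or replicate 3. On deposited FPKM 3 members were called and the median was 0.54; with only the compared groups in the fit none was called, where the test had far fewer libraries to estimate the spread. RFeSP was called in all 6 leave-outs and in 10 of 11 other alternatives.

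In the anterior midgut of Hr96[2x] flies subunit genes of all 4 complexes were higher as well. Of 45 members 24 rose and none fell, where 18.4% of all genes tested were called in either direction and 8.61% were called higher. All 45 changes were above 0, with a median of 0.72 (1.65-fold) and a range of 0.38 to 1.87. The groups did not overlap for 41 members, against 17.8% of all genes tested. Complex I had 13 of 24 members called, complex III 5 of 7, complex IV 3 of 8 and complex V 3 of 6. Of the core subunits of complex I found by symbol, 3 of 4 rose (median 0.61), and of its other subunits 10 of 20 rose (median 0.72).

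CG7712 had 160.4, 166 and 141 scaled FPKM in Hr96[2x], against 44.4, 57.4 and 48.5 in wild type. The lowest Hr96[2x] library was far above the highest wild-type library, and the log2 change of 1.62 (SE 0.20) had the smallest adjusted p of any member in any comparison, 3.77e-06. CG9172 (ND-20, the core subunit whose iron-sulfur cluster hands electrons to ubiquinone) had 233, 212 and 185 in Hr96[2x], against 102, 135 and 115 in wild type, a rise of 0.84 (adjusted p = 0.00173). The complex III duplicate CG30354 (FBgn0050354, chr2R:8677219-8677661, plus strand) had 8.96, 12.1 and 5.14 in Hr96[2x], against 1.56, 1.27 and 1.84 in wild type, a rise of 1.87 (SE 0.43, adjusted p = 0.00378). All 3 genes were higher in every Hr96[2x] library, the last at a level far under the main subunits of its complex.

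The delta subunit gene l(1)G0230 (FBgn0028342, chrX:10212970-10217393, plus strand) had 524, 506 and 403 in Hr96[2x], against 232, 269 and 231 in wild type, a rise of 0.96 (adjusted p = 0.00411). Of the most abundant members, CG32230 rose by 0.87 (adjusted p = 0.0452) and CG3560 by 0.85 (adjusted p = 0.0163). cype, at 0.69, and CG4692, at 0.76 with an adjusted p of 0.05, were not under the threshold. Of the genes under other symbols, NDUFS3 (0.69) and l(2)35Di (0.86) rose and NDUFA8 was at 0.58. With 1 library left out l(2)35Di was called in 6 of 6 fits, CG3560 in 3 of 6, and CG32230 and NDUFS3 in 2 of 6 each. On deposited FPKM 2 members were called and the median was 0.21, against -0.40 for all genes tested, a gap of 0.61 where scaled values gave 0.71. The count was 9 without wild-type replicate 1, 10 without wild-type replicate 3, 12 without Hr96[2x] replicate 1 and 9 without Hr96[2x] replicate 2, and 6 with replicates 2 and 3 averaged.

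In posterior midgut of Hr96[2x] flies, 1 member rose and none fell, where 11.2% of all genes tested were called and 4.13% were called higher. That member was CG7712, with 151, 150.2 and 124 scaled FPKM in Hr96[2x], against 57.2, 72.8 and 66.4 in wild type (log2 change 1.11, SE 0.20, adjusted p = 0.000516). The groups lay apart, and CG7712 kept its call in all 11 alternatives and 6 leave-outs. The median change of the members was 0.35 (1.28-fold), 44 of 45 were above 0, 5 had an unadjusted p under 0.05, and 18 did not overlap, against 15.5% of all genes tested. The count was 3 without Hr96[2x] replicate 3, the lowest library of its group. The most abundant members were at 0.45 (CG32230), 0.22 (CG3560), 0.35 (cype) and 0.24 (CG4692). In posterior Hr96[1] midgut CG7712 had 71.3, 84.5 and 134 and was at 0.51 (adjusted p = 0.0947). The exons of CG7712 overlap those of CG12942 on the other strand, and the library kit does not keep strand, so that reads of the 2 genes cannot be told apart there.

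**Figure D3:**
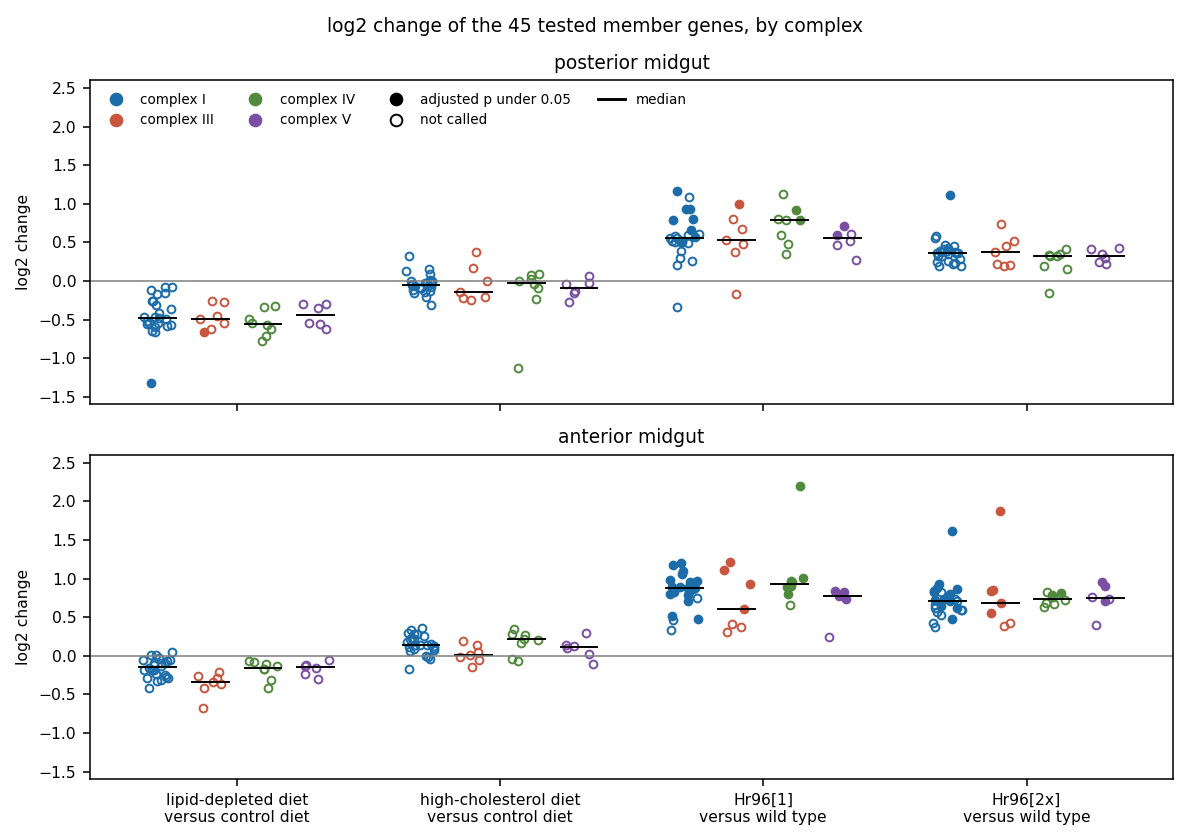
Log2 change of every tested member in each condition against wild type on the control diet, by complex and region (1 point a member, filled where the adjusted p was under 0.05, line at the median). In anterior midgut the medians are 0.84 for Hr96[1] and 0.72 for Hr96[2x], and in posterior midgut the lipid-depleted diet has its median at -0.49.

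A difference between regions was tested directly, as the change in posterior midgut minus the change in anterior midgut. For Hr96[1] no member was called and 1 had an unadjusted p under 0.05, with a median of -0.22, where 0.408% of all genes tested were called. For Hr96[2x] no member was called by limma and none had an unadjusted p under 0.05, with a median of -0.40 and 0.36% of all genes tested called. No member was thus called as responding differently between the regions, although fewer were called in posterior midgut. Of the 45 differences, 41 were below 0 for Hr96[1] and 44 for Hr96[2x]. Same-numbered libraries of the 2 regions deviated together in both strains and on the lipid-depleted diet. The tests between regions, here and below, treat them as independent, so that their p-values leave this out of account.

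On the lipid-depleted diet every tested subunit gene lay below wild type in posterior midgut, and 2 of them passed the test. All 45 changes were below 0, with a median of -0.49 (0.71-fold), and 2 members fell and none rose, where 3.83% of all genes tested were called in either direction and 2.44% were called lower. An unadjusted p under 0.05 was reached by 20 members, and 23 did not overlap, against 13.3% of all genes tested. CG18624 had 68.3, 42.4 and 45.8 scaled FPKM on the lipid-depleted diet, against 140.4, 107 and 141 on the control diet, and fell by 1.32 (SE 0.31, adjusted p = 0.0142). CG4769, cytochrome c1, through which complex III hands electrons to cytochrome c (FBgn0035600, chr3L:5360211-5362798, plus strand), had 194, 134 and 158 on the lipid-depleted diet, against 242, 271 and 249.8 on the control diet, and fell by 0.66 (SE 0.17, adjusted p = 0.0313). In both genes the groups lay apart, and the highest lipid-depleted library was replicate 1.

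The medians by complex were close to each other, -0.48 for I, -0.49 for III, -0.56 for IV and -0.45 for V. CG4692 was at -0.62, CG3560 at -0.46, cype at -0.32 and CG32230 at -0.08, none called. Of the genes under other symbols NDUFA8 fell by 0.77 (adjusted p = 0.0357). With 1 library left out CG18624 was called in 3 of 6 fits, and CG4769 and NDUFA8 in 1 of 6 each. The count of 2 became 4 without lipid-depleted replicate 1, 1 without wild-type replicate 2 or 3, and 0 without wild-type replicate 1 or without lipid-depleted replicate 2 or 3. On deposited FPKM the median was -0.34, 0.45 below that of all genes tested.

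In anterior midgut the same diet gave no call among the members by limma, 1 unadjusted p under 0.05 and a median of -0.17, where 3.17% of all genes tested were called. Of 45 changes, 42 were below 0, and 2 members were lower without overlap, against 11.0% of all genes tested. Complex III had the lowest median, -0.34. CG32230 was at -0.03, CG3560 at -0.29, cype at -0.11 and CG4692 at -0.13. The test between regions called no member, with 2 at an unadjusted p under 0.05 and a median of -0.29, where 0.576% of all genes tested were called.

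On the high-cholesterol diet no member was called in either region by limma, and none had an unadjusted p under 0.05. In posterior midgut the median was -0.05, where 0.876% of all genes tested were called, and 1 member was lower without overlap, against 6.53% of all genes tested. In anterior midgut the median was 0.14, where 3.52% of all genes tested were called, and 5 members were higher without overlap, against 11.1%. The sign of these medians was not fixed: in anterior midgut it was -0.42 on deposited FPKM, -0.09 with quantile normalization and -0.01 without high-cholesterol replicate 1, and in posterior midgut 0.07 without high-cholesterol replicate 3. cype was at 0.08 in posterior and 0.28 in anterior midgut, CG4692 at -0.16 and 0.13, CG32230 at -0.07 and 0.29, and CG3560 at -0.22 and 0.14. The test between regions called no member, with none at an unadjusted p under 0.05 and a median of -0.20, where 0.024% of all genes tested were called.

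**Figure D4:**
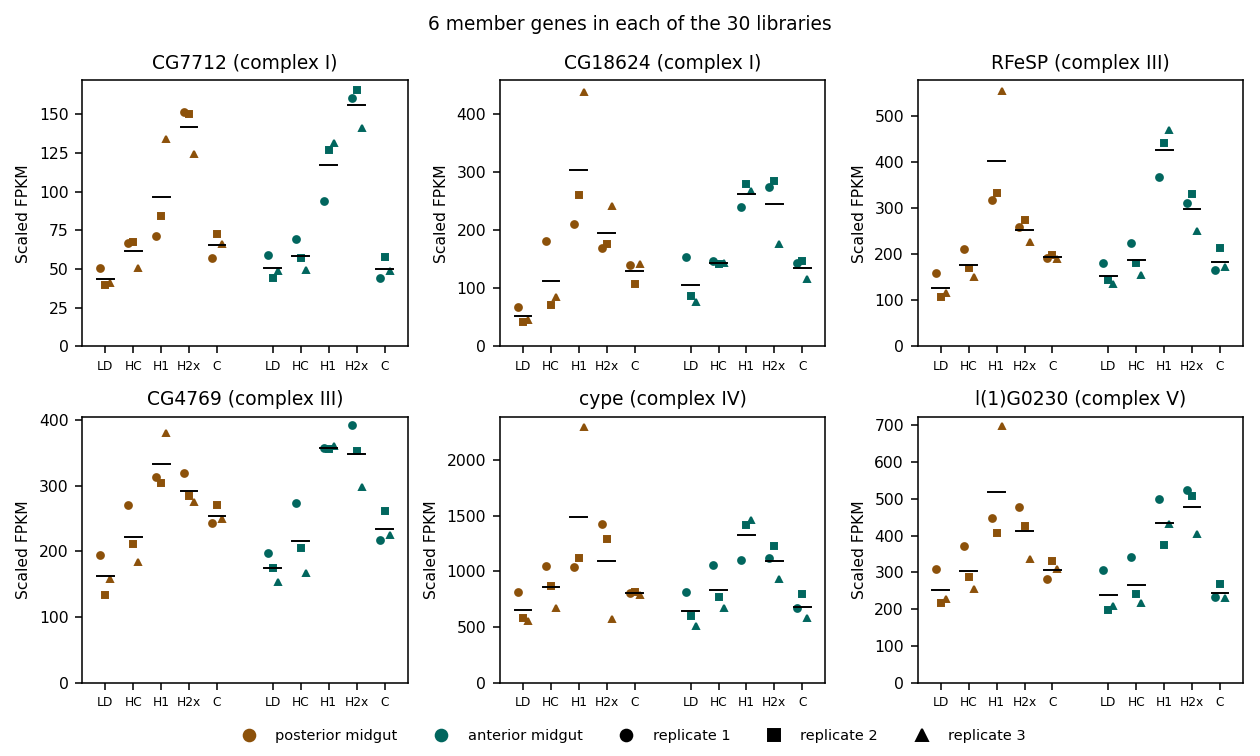
Scaled FPKM of CG7712, CG18624, RFeSP, CG4769, cype and l(1)G0230 in every library (1 point a library, bar at the group mean), with posterior groups left of anterior groups; LD is the lipid-depleted diet, HC the high-cholesterol diet, H1 and H2x the strains Hr96[1] and Hr96[2x], and C wild type on the control diet. CG7712 is above all wild-type libraries in both regions of Hr96[2x], and CG18624 on the lipid-depleted diet lies at 42.4 to 68.3 in posterior midgut.

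Between the regions of wild-type flies no member was called by limma and 2 had an unadjusted p under 0.05, where 14.7% of all genes tested were called; the median of posterior over anterior midgut was 0.22, with 40 of 45 above 0. Of the members, 14 were higher in posterior midgut without overlap and 1 was lower, against 16.9% and 19.8% of all genes tested. Over the mean of the 5 conditions, where 45.2% of all genes tested were called, 2 members were higher in posterior midgut, against 21.8% of all genes tested, and 1 was lower, against 23.4%. sun, the epsilon subunit of ATP synthase, averaged 454 ± 73.4 scaled FPKM in posterior and 291 ± 43.5 in anterior wild-type midgut (SD, n = 3 each), and was higher by 0.40 over the 5 conditions (adjusted p = 0.00777). CG14482 averaged 427 ± 65.3 in posterior and 278 ± 11.0 in anterior wild-type midgut and was higher by 0.34 (adjusted p = 0.0242). CG3731, the core protein 1 gene of complex III, averaged 308 ± 37.2 in posterior and 376 ± 34.7 in anterior wild-type midgut and was lower over the 5 conditions, with a log2 change of -0.35 (adjusted p = 0.00403).

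These region results depend on scaling, since the deposited FPKM of all genes tested were higher in posterior midgut by a median of 0.35 in wild type and 0.52 over the 5 conditions. On deposited FPKM the members had medians of 0.62 and 0.57. Of the members 7 and 42 were called higher, where 1392 and 6380 of 8398 genes tested were called higher. CG3731 changed sign, to 0.26. With scaled values the median over the 5 conditions was -0.04. With quantile normalization it was 0.11 with 10 members higher, where 1821 of 8335 genes tested were called higher. The most abundant members, CG32230 (0.29), cype (0.06), CG3560 (-0.04) and CG4692 (-0.13), were not called over the 5 conditions. With the replicate number as a block 7 of 45 members were called over the 5 conditions. Without the block 45.2% of all genes tested were called. Same-numbered libraries deviated together between the regions on the lipid-depleted diet, in Hr96[1] and in Hr96[2x]. On the high-cholesterol diet and in wild type replicates 1 and 3 did so, and replicate 2 had correlations of 0.0845 and 0.0376.

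Other genes of the same pathway were described from lists kept apart from the 47. Of 17 further nuclear subunit genes, 10 rose in anterior Hr96[1] midgut (median 0.78), 3 in posterior Hr96[1] (0.52), 7 in anterior Hr96[2x] (0.67) and 1 in posterior Hr96[2x] (0.36); none fell in these comparisons and none was called on either diet. Of 14 duplicate subunit genes outside the list, 1 passed the filter on low values: Cyt-c-d, the testis cytochrome c, had 1.11, 0.198 and 0 in posterior Hr96[1], against 2.05, 1.61 and 2.36 in posterior wild type, and 0.552, 0.370 and 0.674 in anterior Hr96[1], against 2.80, 1.61 and 1.94 in anterior wild type. It fell by 1.13 in posterior and 1.01 in anterior midgut. ox, a small complex III subunit gene, had 1012, 942 and 724 scaled FPKM in posterior Hr96[2x] midgut, against 439, 549 and 501 in posterior wild type, and 779, 979 and 641 in anterior Hr96[2x], against 358, 378 and 345 in anterior wild type. It rose by 0.84 in posterior and 1.13 in anterior midgut, and all Hr96[2x] libraries lay above wild type. CG1746, the membrane ring subunit c of ATP synthase, rose by 0.63 in posterior Hr96[1], 0.57 in anterior Hr96[1] and 0.61 in anterior Hr96[2x]. With 1 library left out, ox was called in 6 of 6 fits in both regions, and CG1746 in 2 of 6 in posterior Hr96[1] (adjusted p up to 0.19).

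Complex II and cytochrome c, 5 genes, were mixed. SdhC, a membrane anchor of succinate dehydrogenase, had 294, 404 and 378 scaled FPKM in anterior Hr96[1], 303, 286 and 262 in anterior Hr96[2x] and 141, 171 and 144 in anterior wild type. It rose by 1.22 in anterior Hr96[1] (adjusted p = 0.000598), by 0.90 in anterior Hr96[2x] (adjusted p = 0.00914) and by 0.85 in posterior Hr96[1] (adjusted p = 0.017). SdhA, the flavoprotein subunit of the same enzyme, was at 0.03 in anterior Hr96[1], 0.20 in anterior Hr96[2x] and 0.27 in posterior Hr96[1], and was not called. With 1 library left out, SdhC was called in 6 of 6 fits in both anterior comparisons and in 4 of 6 in posterior Hr96[1] (adjusted p up to 0.137). No other gene of the 5 was called in any comparison of a condition with wild type.

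The 13 protein genes of mitochondrial DNA gave few calls. In the Hr96 comparisons limma called 1 of them, mt:ATPase8 in anterior Hr96[1] midgut, with 32.7, 111 and 45.0 scaled FPKM, against 10.4, 0 and 3.41 in wild type (log2 change 3.92); its reading frame overlaps that of mt:ATPase6, its estimates varied widely between replicates, and it was called in 4 of 6 fits with 1 library left out. Their medians were 0.38 in posterior and 0.37 in anterior Hr96[1], and -0.03 in posterior and -0.14 in anterior Hr96[2x]. On the lipid-depleted diet the posterior median was 0.60 with 13 of 13 above 0 and none called, no unadjusted p being under 0.05, where the 45 nuclear members were all below 0. The 13 genes summed to 7465, 19550 and 10860 scaled FPKM on the lipid-depleted diet, against 16090, 6410 and 6404 in wild type, so that the groups overlapped. In anterior midgut it was -0.63 on the lipid-depleted diet and -0.81 on the high-cholesterol diet, none called.

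Of 11 tested genes of the tricarboxylic acid cycle, which feeds NADH and succinate to the chain, 2 rose and 1 fell in anterior Hr96[1] midgut, none changed in posterior Hr96[1], 1 rose in anterior and none in posterior Hr96[2x], and 2 fell in anterior midgut on the lipid-depleted diet. Mdh2 (malate dehydrogenase) rose by 0.61 and l(1)G0156 (an isocitrate dehydrogenase subunit) by 0.58 in anterior Hr96[1]. kdn (citrate synthase) rose by 0.73 in anterior Hr96[2x]. With 1 library left out l(1)G0156 was called in 5 of 6 fits and kdn in 2 of 6 (adjusted p up to 0.161). sesB, the adenine nucleotide translocator that exchanges ADP and ATP, was called higher in posterior Hr96[1] (0.48), anterior Hr96[1] (0.76), posterior Hr96[2x] (0.53) and anterior Hr96[2x] (0.81), whereas porin, the outer membrane channel, was called in none of these. The anterior calls of sesB held in 6 of 6 fits with 1 library left out in both strains, whereas the posterior calls held in 0 of 6 in Hr96[1] (adjusted p up to 0.13) and in 1 of 6 in Hr96[2x] (up to 0.185), and in 4 and 7 of 11 other alternatives. Of 5 assembly factor genes, 1 rose in anterior Hr96[1], 3 in anterior Hr96[2x] and 2 in posterior Hr96[2x], among them Surf1, which serves complex IV assembly, at 0.74 in posterior and 0.77 in anterior Hr96[2x]. With 1 library left out Surf1 was called in 2 of 6 fits in posterior and 3 of 6 in anterior midgut.

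Of 8 tested regulators of mitochondrial biogenesis, ERR, the estrogen-related receptor, was called higher in anterior midgut in all 4 comparisons: on the lipid-depleted diet (1.00), on the high-cholesterol diet (0.97), in Hr96[1] (0.76) and in Hr96[2x] (0.67), all against the same 3 wild-type libraries. These calls lay close to the threshold: with 1 library left out they held in 3 of 6 fits on the lipid-depleted diet and in 2 of 6 in each of the other 3 comparisons, and in 9, 8, 8 and 7 of 11 other alternatives in the same order (adjusted p up to 0.618). srl (the fly PGC-1 homologue), TFAM (which packages mitochondrial DNA) and ewg (the fly counterpart of NRF1) were not called in any comparison with wild type. tam, the catalytic subunit of the mitochondrial DNA polymerase, fell by 0.56 in posterior Hr96[1], by 1.26 in anterior Hr96[1] and by 0.63 in anterior Hr96[2x]. The call in anterior Hr96[1] held in 6 of 6 fits with 1 library left out, that in posterior Hr96[1] in 1 of 6 and that in anterior Hr96[2x] in 2 of 6 (adjusted p up to 0.184).

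**Figure D5:**
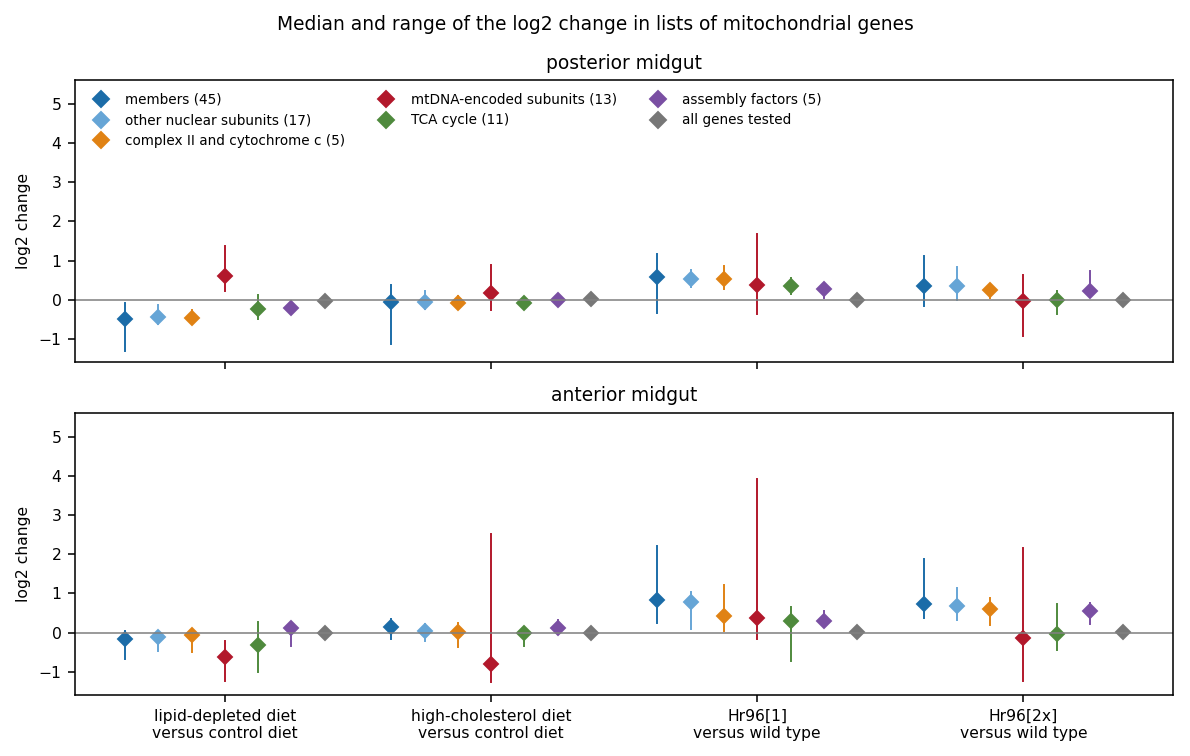
Median (diamond) and range (line) of the log2 changes of 45 members, 17 other nuclear subunit genes, 5 genes of complex II and cytochrome c, 13 genes of mitochondrial DNA, 11 genes of the tricarboxylic acid cycle, 5 assembly factor genes and all genes tested (median alone), for each condition against wild type. In posterior midgut on the lipid-depleted diet the members' median is at -0.49, with 2 members called lower. The median of the mitochondrial DNA genes is at 0.60, with none of these genes called and with summed levels that overlapped between the groups.

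Markers of other cell types moved with some of these results. The 13 visceral muscle genes summed to 1365, 1437 and 1851 scaled FPKM in posterior Hr96[1], against 776, 919 and 900.5 in posterior wild type, and to 1091, 1017 and 1044 in anterior Hr96[1], against 563, 636 and 560 in anterior wild type. Of 12 tested, 3 rose in posterior and 4 in anterior Hr96[1], with Tm2 at 1.36 and Mlc2 at 1.40 in anterior midgut; with 1 library left out Tm2 was called in 6 of 6 fits and Mlc2 in 3 of 6. In Hr96[2x] the sums were 871, 1540 and 601 in posterior and 421, 870 and 373 in anterior midgut, and no muscle gene rose in anterior Hr96[2x], where 24 members did. On the lipid-depleted diet the muscle sums were 791, 512 and 606 in posterior and 401, 411 and 405 in anterior midgut, and no muscle gene was called. Enteroendocrine genes rose in Hr96[2x], 8 of 10 in posterior and 4 of 10 in anterior midgut. Of 8 enterocyte genes, which mark the absorptive cells, Myo31DF, nub and mag were tested. Their sums were 208, 228.5 and 192.5 in posterior Hr96[1] and 996.6, 2414 and 469.6 in posterior Hr96[2x], against 315.2, 334.3 and 301.9 in posterior wild type, so that all posterior Hr96[1] libraries lay below and all Hr96[2x] libraries above wild type. In anterior midgut they were 164.2, 199.1 and 183.4 in Hr96[1] and 603.9, 1089 and 469.6 in Hr96[2x], against 208.6, 192.5 and 204.7 in wild type. Myo31DF, with a log2 change of -0.37, and the lipase gene mag, with -2.85, were called lower in posterior Hr96[1], and mag was called higher in posterior (2.91) and anterior (7.95) Hr96[2x]. The sums include mag, so that they cannot be read as the amount of absorptive cells. The 6 genes of the stem cell and enteroblast list summed to 39.9, 70.3 and 72.9 in posterior midgut on the lipid-depleted diet, against 21.4, 40.3 and 46.9 in wild type, with a median log2 change of 0.61 and none called; the lowest lipid-depleted library lay among the wild-type libraries. The part of these cell types in the members' changes was not tested.

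Transcript length also moved with the results. The members are short, with a median longest transcript of 745 bases, against 1814 for the genes tested. Over 8170 genes, the rank correlation of log2 change with length was -0.20 in posterior and -0.35 in anterior Hr96[1], 0.04 in posterior and -0.21 in anterior Hr96[2x]. Among 1750 genes of at most 1000 bases, 18.7% were called higher in anterior Hr96[1] (median 0.30) and 10.0% in anterior Hr96[2x] (median 0.18). The 8 members longer than 1500 bases had medians of 0.47 in anterior Hr96[1] and 0.45 in anterior Hr96[2x], and the 37 shorter ones 0.89 and 0.74. With the trend on length over all genes removed, 27 and 25 members were called in these comparisons, with medians of 0.59 and 0.56. In those fits 909 and 864 of 8170 genes tested were called higher. On the lipid-depleted diet in posterior midgut the correlation with length was 0.17. After removal of the trend 5 members were called lower there, with a median of -0.41, where 226 of 8170 genes tested were called lower.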

How the data were processed

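Poly(A) RNA of 30 midgut libraries was sequenced, and the authors deposited 1 table of FPKM per gene and library; depth is unknown. Per the submitters' processing notes, bcl2fastq 2.17.1.14, TopHat2 2.1.1, Bowtie2 2.2.9 and Cufflinks 2.2.1 were used with the dm6 build. The libraries keep no strand. FPKM were divided by median-of-ratios factors over 8584 genes above 0 in every library (0.537 to 1.45), since deposited FPKM differed between groups over all genes. Genes with a failed estimate in any library (103) or a mean under 1 were left out, and log2(scaled FPKM + 1) of 8335 genes was fitted in limma 3.58.1 (R 4.3.3) with 1 term per group and 20 residual degrees of freedom. Fold changes on this scale understate those of low genes. Values in every library are given for the most abundant member of each complex, up to 4 called members per comparison with the smallest adjusted p, and the lowest members. The member rule matches symbols alone, but members and lists were chosen with earlier results of these data known. Same-numbered libraries of the 2 regions deviated together on the lipid-depleted diet, in Hr96[1] and in Hr96[2x] (correlations of 0.2 to 0.521). In the other pairs of groups the 3 correlations were not all over 0.1. Hr96[2x] and wild-type libraries still correlated best with their own number, at 0.0605 to 0.191 in anterior and 0.0287 to 0.0853 in posterior midgut. No replicate term was used. Alternatives were deposited FPKM, quantile normalization, pseudocounts of 0.1 and 5, filters of 5 and none, only the groups compared, a replicate block, replicates 2 and 3 averaged and each library left out; removal of the length trend and of replicate 1 of every group were added after seeing the data. Coordinates are those of the files and equal the dm6 annotation.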

Additional observations from a re-analysis of the deposited data

Results flagged for a closer look

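Acon, which encodes aconitase of the tricarboxylic acid cycle and is no subunit gene, was called as differing between regions in its change in Hr96[1], close to the threshold. In posterior midgut it had 192, 155 and 179 scaled FPKM in Hr96[1], against 143, 172 and 130.3 in wild type, a log2 change of 0.24 that was not called. In anterior midgut it had 320.5, 300.5 and 310.2, against 544, 594 and 425, and fell by 0.73 (adjusted p = 0.00143). The posterior change minus the anterior change was 0.97 (SE 0.22, limma, adjusted p = 0.0426), with groups that do not overlap in anterior midgut only. That call held in 4 of 12 fits with 1 library left out (adjusted p up to 0.134) and in 4 of 11 other alternatives (up to 0.487). No subunit gene reached the threshold in the same test.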

How the results depend on the processing

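The counts of called members depended on the scaling between libraries and on single libraries more than their medians did. On deposited FPKM the counts were 3 (Hr96[1] anterior), 3 (Hr96[1] posterior), 2 (Hr96[2x] anterior), 1 (lipid-depleted posterior), 7 (posterior over anterior, wild type) and 42 (posterior over anterior, 5 conditions). With only the compared groups in the fit they were 0 (Hr96[1] posterior), 1 (lipid-depleted posterior) and 2 (region, wild type). Quantile normalization gave 1 (lipid-depleted posterior) and 10 (region, 5 conditions). Between the regions, 1392 (wild type) and 6380 (5 conditions) of 8398 genes tested were called higher on deposited FPKM. With quantile normalization 1821 of 8335 were called higher over the 5 conditions. Averaging replicates 2 and 3 gave 6 (Hr96[1] anterior), 1 (Hr96[1] posterior), 6 (Hr96[2x] anterior) and 0 (lipid-depleted posterior). Removing the length trend gave 3 (Hr96[2x] posterior), 5 (lipid-depleted posterior) and 7 (region, 5 conditions). Of 8170 genes tested there, 494 were called higher and 656 lower (Hr96[2x] posterior). The higher and lower calls were 180 and 226 (lipid-depleted posterior) and 2028 and 2022 (region, 5 conditions). Without replicate 1 of every group the counts were 21 (Hr96[1] posterior), 9 (Hr96[2x] anterior), 7 (lipid-depleted posterior) and 6 (region, 5 conditions), and the change of CG3560 in posterior Hr96[2x] turned to -0.0222. On deposited FPKM that of CG3731 between regions turned to 0.26 (not called). Over all genes tested, anterior Hr96[1] had 990 higher and 1003 lower calls with scaled values, against 314 and 1472 on deposited FPKM, and anterior Hr96[2x] 718 and 814, against 233 and 2116.

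Leaving out 1 library at a time gave 16 to 33 calls (Hr96[1] anterior), 2 to 21 (Hr96[1] posterior), 9 to 26 (Hr96[2x] anterior), 1 to 3 (Hr96[2x] posterior), 0 to 4 (lipid-depleted posterior) and 3 to 6 (region, 5 conditions), the last with 5 without anterior high-cholesterol replicate 1 and 6 without posterior Hr96[2x] replicate 3. The replicate block gave 7 calls among 45 members for the region over 5 conditions, where 45.2% of all genes tested were called without the block. It changed no other count by over 1.5 times. All 3 correlations of same-numbered libraries were over 0.1 in 3 of 13 pairs of groups. These were the 2 regions on the lipid-depleted diet, in Hr96[1] and in Hr96[2x]. Between the regions of wild type, replicates 1, 2 and 3 had 0.307, 0.0376 and 0.26. On the high-cholesterol diet they had 0.343, 0.0845 and 0.195. Over the 13 pairs the range was -0.08 to 0.52, and in 5 pairs every library correlated best with its own number. Hr96[2x] against wild type was among the 5 in both regions. The causes of these shifts were not tested. With depth unknown, no detection limit can be given for members listed at 0.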
